A study of Mus musculus with 12 samples.

Results

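Podocyte and slit diaphragm genes were followed in whole kidneys of 12 mice, 1 array per mouse. The 9 genes were Nphs1, Kirrel, Podxl, Synpo, Cd2ap, Wt1, Actn4, Trpc6 and Plce1. They were chosen by symbol, as every probe set annotated to 1 of these symbols only, which gave 10 probe sets, 2 of them for Nphs1. All 9 genes are among the 19936 genes with a single-symbol probe set, and all 9 passed the filter on dim genes that left 16480 genes for testing. The 4 groups held 3 mice each, all 6 months old, of the FVB strain and fed standard chow. OVE-D6 mice were diabetic and homozygous for the D6 deletion (D6-/-). OVE mice were diabetic with intact D6 (D6+/+), D6 mice were non-diabetic D6-/-, and FVB mice were non-diabetic D6+/+. Diabetes comes from the OVE26 transgene, which overproduces calmodulin in the insulin-secreting beta cells of the pancreas, and D6 is the chemokine-scavenging receptor encoded by Ackr2. The deletion was made in C57BL/6 mice and bred into FVB over at least 10 generations. The study asked how loss of D6 alters the diabetic kidney, in mice also followed for albuminuria.

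Podocytes are the cells that wrap the glomerular capillaries with interlocking foot processes. The slit between neighbouring processes is bridged by the slit diaphragm, an adhesion complex of nephrin (Nphs1) and the Neph proteins (Kirrel family) that is tied to the actin cytoskeleton by adaptors such as Cd2ap, and it is the last barrier that keeps albumin out of the urine. Mutations in several of these genes, among them NPHS1, TRPC6, ACTN4, PLCE1 and WT1, cause proteinuric disease in humans, and loss of nephrin is a well-known feature of diabetic kidney disease.

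The values are log2 summaries of each probe set, and a difference between groups is a difference of log2 means. Levels are compared between arrays for the same probe set and never between genes. In a whole kidney, fewer podocytes and less RNA per podocyte cannot be told apart. The array medians over all 35556 probe sets lay between 6.84 and 6.93, and the number of arrays limits the precision. Where an array median was subtracted as an alternative, it was the median of the probe sets with a single symbol only. Ackr2 itself lay between 6.74 and 7.04 on all 12 arrays, and its D6 and FVB means were 6.80 and 6.90 (log2 difference -0.10 ± 0.08, SE, n = 3 per group, limma adjusted p = 1). Whether that probe set lies within the deletion is not known here, so it does not check the genotype labels. In the macrophage markers OVE replicate 3 (mean 7.85) lay below the other OVE arrays (8.92 and 8.83), and results that turn on it are given without it as well. As a mark of background, the means of 1027 olfactory receptor genes, little used in kidney, had a 95th percentile of 5.93.

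The start region of Nphs1 is shown with those of Kirrel2 and Kirrel, because Nphs1 fell and Kirrel rose in OVE against FVB while Kirrel2, the neighbour of Nphs1, is another gene of the same Neph family. Each window runs from 250 bases before to 50 after the annotated start, in RefSeq for build GRCm38.p6, and reads 5′ to 3′ on the gene's own strand. The Nphs1 window is chr7:30459808-30460107 on the plus strand, the Kirrel2 window chr7:30457466-30457765 on the minus strand and the Kirrel window chr3:87174488-87174787 on the minus strand. Capitals mark the letters GTGGGNG, a core of the zinc finger motif that Wt1 shares with the Egr factors, searched on both strands.
Nphs1: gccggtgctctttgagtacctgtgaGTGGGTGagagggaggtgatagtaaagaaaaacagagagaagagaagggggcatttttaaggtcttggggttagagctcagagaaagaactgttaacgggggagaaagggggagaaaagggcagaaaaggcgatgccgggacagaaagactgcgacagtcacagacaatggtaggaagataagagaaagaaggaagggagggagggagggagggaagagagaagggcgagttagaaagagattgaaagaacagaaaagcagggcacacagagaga
Kirrel2: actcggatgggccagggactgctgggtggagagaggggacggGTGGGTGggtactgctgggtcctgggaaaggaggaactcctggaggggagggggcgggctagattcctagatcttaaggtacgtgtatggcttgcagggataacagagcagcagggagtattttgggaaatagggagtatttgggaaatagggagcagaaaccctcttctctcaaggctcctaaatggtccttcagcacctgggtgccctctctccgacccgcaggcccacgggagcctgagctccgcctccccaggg
Kirrel: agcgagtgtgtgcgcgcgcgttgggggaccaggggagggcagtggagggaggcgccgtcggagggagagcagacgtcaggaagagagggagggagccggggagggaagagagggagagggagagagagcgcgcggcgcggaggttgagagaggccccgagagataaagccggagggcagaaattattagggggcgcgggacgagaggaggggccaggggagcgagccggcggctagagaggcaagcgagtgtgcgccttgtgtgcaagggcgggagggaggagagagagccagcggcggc
Nphs1 and Kirrel2 are transcribed away from each other, and the starts used for these windows lie 2543 bases apart. The motif occurred 1 time in the Nphs1 window and 1 time in the Kirrel2 window, and its letters were not found in the Kirrel window. Windows were matched for 6 of the 9 podocyte genes, and 4 of these 6 held the motif, with 2 matches each for Actn4 and Trpc6, 1 each for Cd2ap and Nphs1 and 0 for Plce1 and Kirrel. Of the 32851 windows of this length in the table, 31.6% held it. The longer form GCGTGGGNG, which contains the core, occurred in 1.9% of all windows and in that of Actn4 alone among these 6. A match of letters is a description of the window and not of binding.

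Nephrin RNA was lower in diabetes. Nphs1 had log2 values of 8.27, 7.99 and 7.86 in OVE-D6 kidneys and 7.78, 7.37 and 7.87 in OVE kidneys, against 8.35, 8.59 and 8.35 in D6 kidneys and 8.32, 8.21 and 8.34 in FVB kidneys. The OVE arrays all lay below the FVB arrays, and the OVE-D6 arrays all lay below the D6 arrays. Nphs1 fell 1.53-fold in OVE against FVB (log2 difference -0.62 ± 0.13, SE, n = 3 per group, 95% interval -0.91 to -0.33, limma adjusted p = 0.0186). In OVE-D6 against D6 the log2 difference was -0.39 ± 0.13 and did not pass (95% interval -0.68 to -0.10, limma adjusted p = 0.308). Averaged over the genotypes, Nphs1 fell with diabetes by 0.51 ± 0.09 (limma adjusted p = 0.0099), the only one of the 9 genes to pass there. The averaged fall passed under all 21 alternatives tried. The call in OVE against FVB ended in 4 of 22 alternatives, without FVB replicate 1 (limma adjusted p = 0.055), without FVB replicate 3 (0.0669), without OVE replicate 2 (0.067) and in a fit of these 2 groups alone (0.0529), while the log2 difference stayed between -0.72 and -0.45 over all 22.

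The lower Nphs1 probe set, 10551905, lay close to background. It read 5.74, 6.07 and 6.11 in OVE-D6 kidneys and 5.76, 5.78 and 5.90 in OVE kidneys, against 6.09, 6.04 and 6.34 in D6 kidneys and 6.10, 6.23 and 5.98 in FVB kidneys. Its OVE arrays were all below its FVB arrays, as for the other Nphs1 probe set, but all 3 of them lay under 5.93. Tested among all 18025 probe sets past the filter, it differed by -0.29 ± 0.11 in OVE against FVB and did not pass (limma adjusted p = 0.147). The 2 probe sets had the same sign in each of the 4 pairwise comparisons.

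Kirrel, which encodes Neph1, the partner that binds nephrin across the slit, went the other way in OVE. Its log2 values were 7.75, 7.89 and 7.94 in OVE-D6 kidneys and 8.17, 8.27 and 8.03 in OVE kidneys, against 7.85, 7.97 and 7.79 in D6 kidneys and 7.74, 7.94 and 7.61 in FVB kidneys. The 3 OVE arrays were the highest of the 12. Kirrel rose 1.32-fold in OVE against FVB (log2 difference 0.40 ± 0.10, SE, n = 3 per group, 95% interval 0.18 to 0.61, limma adjusted p = 0.0328). In OVE-D6 against D6 the log2 difference was -0.01 ± 0.10, with a 95% interval of -0.23 to 0.20 (limma adjusted p = 0.99). The difference between these 2 diabetes effects was -0.41 ± 0.14 (95% interval -0.71 to -0.10, unadjusted p = 0.0129) and did not pass over all genes (limma adjusted p = 0.37). The call in OVE against FVB ended in 6 of 22 alternatives: without FVB replicate 1 (limma adjusted p = 0.0844), without FVB replicate 3 (0.126), without OVE replicate 1 (0.0808), without OVE replicate 2 (0.121), after quantile normalisation (0.0629) and in a fit of the 2 groups alone (0.098).

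Podxl encodes podocalyxin, the negatively charged coat protein that keeps foot processes apart, and it is also made by endothelial cells. Its log2 values were 10.89, 10.64 and 10.54 in OVE-D6 kidneys and 10.61, 10.50 and 10.63 in OVE kidneys, against 10.88, 10.77 and 10.77 in D6 kidneys and 10.62, 10.70 and 10.77 in FVB kidneys. The diabetic and non-diabetic arrays overlapped in both genotypes. The log2 difference was -0.12 ± 0.09 both in OVE against FVB (limma adjusted p = 0.476) and in OVE-D6 against D6 (limma adjusted p = 0.733), with 95% intervals of -0.31 to 0.08 and -0.32 to 0.08.

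Wt1 is the zinc finger transcription factor that maintains the mature podocyte and is also found in parietal cells of Bowman's capsule. It read 8.08, 7.80 and 7.79 in OVE-D6 kidneys and 7.87, 7.50 and 7.60 in OVE kidneys, against 7.82, 8.20 and 8.07 in D6 kidneys and 7.72, 7.98 and 7.99 in FVB kidneys. Its groups overlapped in every pairwise comparison. The log2 difference was -0.24 ± 0.13 in OVE against FVB (95% interval -0.52 to 0.04, limma adjusted p = 0.286) and -0.14 ± 0.13 in OVE-D6 against D6 (limma adjusted p = 0.788).

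The cytoskeletal and adaptor genes did not pass in any comparison. Synpo encodes synaptopodin, an actin-associated protein of foot processes, and read 7.41, 7.51 and 7.44 in OVE-D6 kidneys and 7.42, 7.67 and 7.56 in OVE kidneys, against 7.33, 7.43 and 7.22 in D6 kidneys and 7.20, 7.35 and 7.37 in FVB kidneys. All 3 OVE arrays lay above the FVB arrays, by a log2 difference of means of 0.24 ± 0.09 (95% interval 0.05 to 0.43, limma adjusted p = 0.109). Averaged over the genotypes its diabetes difference was 0.18 ± 0.06 (limma adjusted p = 0.0863). Cd2ap links nephrin to actin and is made in many cell types. It lay between 10.85 and 11.21 on all 12 arrays, and differed by 0.10 ± 0.08 in OVE against FVB (95% interval -0.08 to 0.28). Actn4 encodes the actin cross-linker alpha-actinin-4 and is also made in many cell types. It lay between 12.00 and 12.25 on all 12 arrays, and its difference in OVE against FVB was 0.05 ± 0.08 (95% interval -0.11 to 0.22), a sign that turned after each array's median was subtracted (-0.0075).

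The signalling genes were Plce1 and Trpc6. Plce1 encodes phospholipase C epsilon, needed for normal glomerular development, and read 8.12, 8.11 and 7.90 in OVE-D6 kidneys and 7.85, 7.61 and 8.15 in OVE kidneys, against 8.11, 8.36 and 8.21 in D6 kidneys and 8.14, 8.11 and 8.29 in FVB kidneys. OVE replicate 3 lay among the FVB values while the other OVE arrays lay below them. The log2 difference was -0.31 ± 0.13 in OVE against FVB (95% interval -0.58 to -0.04, limma adjusted p = 0.155). Without OVE replicate 3 it was -0.45 and passed (limma adjusted p = 0.0229), the only 1 of 22 alternatives to do so. Leaving out that array also raised the count over all genes from 1200 to 1901. The averaged diabetes difference of Plce1 was -0.25 ± 0.09 (limma adjusted p = 0.114). Without OVE replicate 3 it was -0.32 (limma adjusted p = 0.0192), the only 1 of 21 alternatives to pass. The averaged count over all genes was then 1916 in place of 1260. Trpc6 encodes a calcium channel of foot processes, and its probe set was dim, between 5.86 and 6.24, near the olfactory mark of 5.93. Trpc6 differed by 0.06 ± 0.08 in OVE against FVB (limma adjusted p = 0.724). In OVE-D6 against D6 it differed by 0.18 ± 0.08, with all OVE-D6 arrays above the D6 arrays (limma adjusted p = 0.5).

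**Figure D1:**
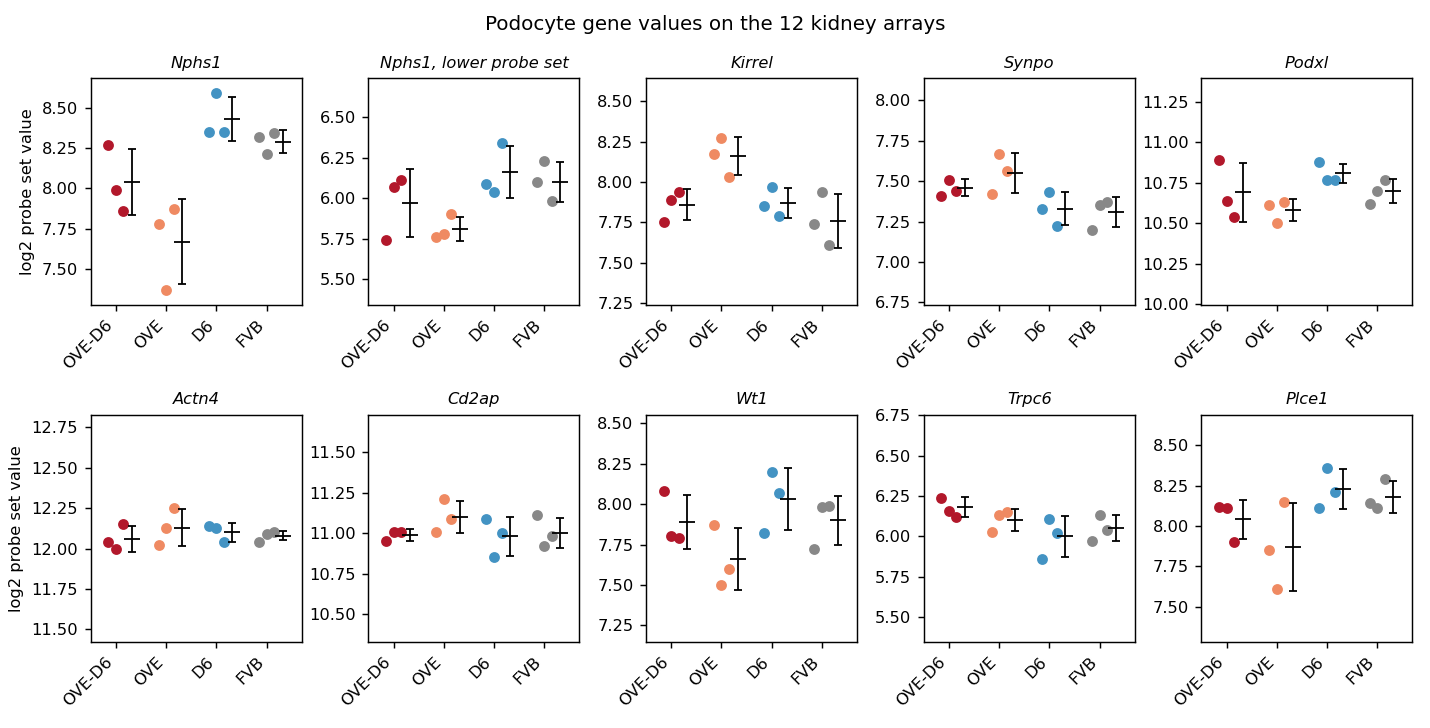
Log2 probe set value of each podocyte gene on the 12 arrays, with points for arrays in replicate order and bars for the group mean and SD (n = 3). Each panel spans the same height of log2 units. Nphs1 sits at 7.86 to 8.27 in OVE-D6 and 7.37 to 7.87 in OVE, against 8.35 to 8.59 in D6 and 8.21 to 8.34 in FVB, while Kirrel is highest in OVE at 8.03 to 8.27.

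Counted over the 9 genes, OVE against FVB held 1 gene that rose and 1 that fell, beside 4.90% of all tested genes higher and 2.38% lower, 7.28% in all. The median log2 difference of the 9 was 0.05, against -0.02 over all 16480 genes. In this comparison all arrays of the groups were apart in 3 of the 9, higher for Kirrel and Synpo and lower for Nphs1, beside 27.1% of all genes. After each array's median over the single-symbol probe sets was subtracted, 657 genes were higher and 857 lower in OVE against FVB. These counts stood in place of 808 and 392, and both podocyte calls held. The median log2 difference over all genes was then -0.08. In OVE-D6 against D6 limma called 0 of the 9, beside 0.285% of all genes. At an unadjusted p under 0.05 there were 2 of the 9 (Nphs1 and Trpc6), beside 9.98% of all genes. The arrays of the groups were apart for the same 2 genes, beside 16.4% of all genes. The median log2 difference there was -0.04, against -0.01 over all genes. The 2 diabetes comparisons use different arrays and share no controls. None of the 9 passed in the test of the difference between them, where limma called 0 of 16480 genes (0%). At an unadjusted p under 0.05 there was 1 of the 9, Kirrel, beside 9.99% of all genes. Without OVE replicate 3 the same test called 377 of all genes and 0 of the 9, and without any other single array it called 0 to 1 gene. The averaged diabetes effect called 7.65% of all genes and 1 of the 9.

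Loss of D6 was compared within the diabetic and within the non-diabetic kidneys. In OVE-D6 against OVE, Nphs1 means were 8.04 ± 0.21 and 7.67 ± 0.26 (SD, n = 3 each), a log2 difference of 0.37 ± 0.13 (SE, 95% interval 0.08 to 0.66) that did not pass over all genes (limma adjusted p = 0.238). The Nphs1 arrays of the groups overlapped by a narrow margin, with 7.86 the lowest in OVE-D6 and 7.87 the highest in OVE. Kirrel means were 7.86 ± 0.10 and 8.16 ± 0.12 (SD, n = 3 each), a log2 difference of -0.30 ± 0.10 (SE, 95% interval -0.51 to -0.08, limma adjusted p = 0.205), with all OVE-D6 arrays below the OVE arrays. For both genes the difference from OVE thus ran opposite to that of OVE from FVB, but the comparisons share the OVE arrays. Wt1 differed by 0.24 ± 0.13 and Plce1 by 0.17 ± 0.13, and Podxl, Trpc6, Actn4, Synpo and Cd2ap by between -0.11 and 0.11. In all, limma called 0 of the 9 in OVE-D6 against OVE, beside 0.231% of all genes. At an unadjusted p under 0.05 there were 2 of the 9, beside 14.8% of all genes. Without OVE replicate 3 the count over all genes was 668 in place of 38, with 0 of the 9, and without another single array it was 1 to 19. Kirrel was the 1 gene of the 9 with the groups apart, beside 17.6% of all genes.

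In D6 against FVB limma called 0 of the 9 genes, beside 0.0121% of all genes. At an unadjusted p under 0.05 there were 0 of the 9, beside 3.82% of all genes. The log2 differences ran from -0.05 for Trpc6 to 0.14 for Nphs1, and the 95% interval for Nphs1 was -0.15 to 0.43. Nphs1 and Podxl had all D6 arrays above the FVB arrays, 2 of the 9 apart, where 9.79% of all genes were apart in either direction. Trpc6 lies on chromosome 9, as Ackr2 does, and its D6 and FVB means were 6.00 ± 0.13 and 6.05 ± 0.08 (SD, n = 3 each).

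**Figure D2:**
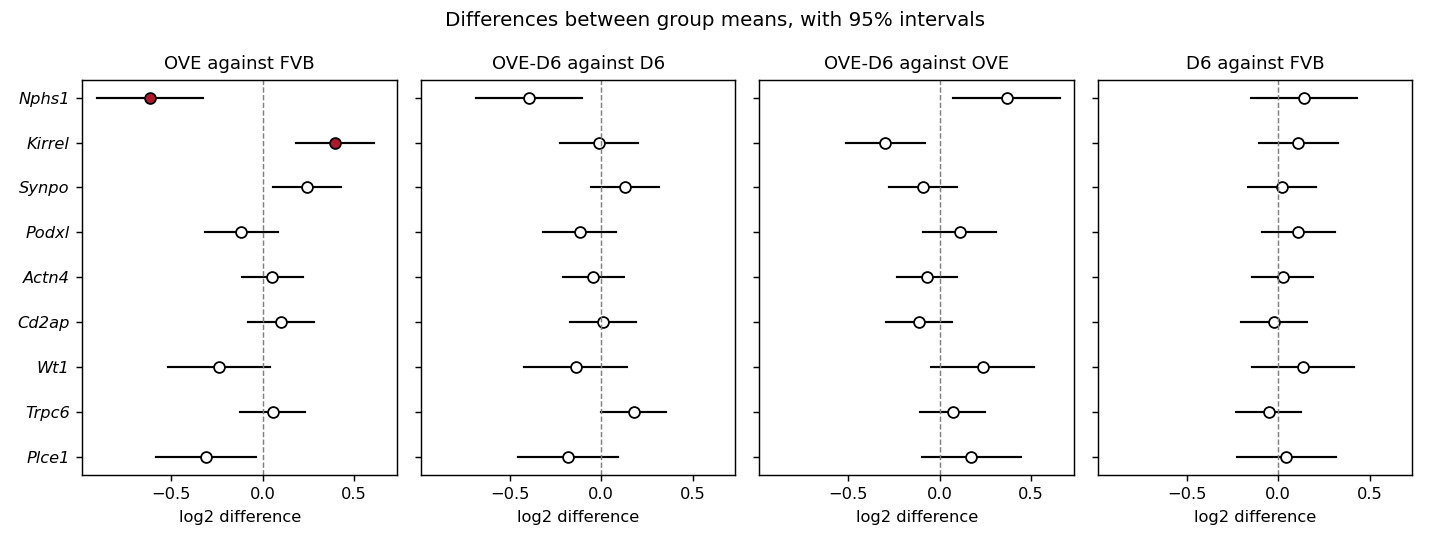
Log2 difference of group means for each podocyte gene (points) with its 95% interval from limma (lines), in 4 comparisons named as the first group against the second. Filled points passed an adjusted p of 0.05 over all genes: only Nphs1 (-0.62) and Kirrel (0.40) in OVE against FVB are filled.

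Other podocyte genes were mixed. Of 23 tested genes of the slit diaphragm and foot process beyond the 9, 2 rose and 1 fell in OVE against FVB, beside 4.90% and 2.38% of all genes, and their median log2 difference was 0.00. Kirrel3, the Neph2 gene, read 6.45, 6.60 and 6.57 in OVE-D6 kidneys and 6.35, 6.37 and 6.29 in OVE kidneys, against 6.89, 6.79 and 6.63 in D6 kidneys and 6.77, 6.75 and 6.57 in FVB kidneys. Every diabetic array thus lay below the non-diabetic arrays of its genotype. Kirrel3 fell in OVE against FVB (log2 difference -0.36 ± 0.09, SE, limma adjusted p = 0.0269) and in the averaged diabetes effect (-0.29 ± 0.06, limma adjusted p = 0.0149), whereas in OVE-D6 against D6 the difference was -0.23 ± 0.09 (limma adjusted p = 0.39). The OVE against FVB call ended without FVB replicate 1 (limma adjusted p = 0.0853), FVB replicate 2 (0.0936), OVE replicate 1 (0.0632) or OVE replicate 2 (0.0728), and in the 2 groups alone (0.0697).

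Kirrel2, the Neph3 gene that starts beside Nphs1, read 6.08, 6.27 and 6.25 in OVE-D6 kidneys and 6.18, 6.26 and 6.16 in OVE kidneys, against 6.30, 6.18 and 6.51 in D6 kidneys and 6.10, 6.17 and 6.24 in FVB kidneys. The Kirrel2 probe set was dim, between 6.08 and 6.51, near the olfactory mark of 5.93. A small difference there thus does not show that Kirrel2 RNA was unchanged. The log2 difference of Kirrel2 in OVE against FVB was 0.03 ± 0.09 (95% interval -0.17 to 0.22). The sign of that difference turned, to -0.03 after each array's median was subtracted. In OVE-D6 against D6 Kirrel2 differed by -0.13 ± 0.09 (limma adjusted p = 0.689).

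Fat1 encodes a large protocadherin of the slit diaphragm and of many epithelia, and it rose 1.42-fold in OVE against FVB (log2 difference 0.51 ± 0.10, SE, n = 3 per group, limma adjusted p = 0.0111). Fat1 was at 9.87, 10.00 and 9.87 in OVE kidneys against 9.46, 9.33 and 9.43 in FVB kidneys, and its call ended without OVE replicate 2 (limma adjusted p = 0.0516). In OVE-D6 kidneys it was at 9.39, 9.59 and 9.81, against 9.40, 9.41 and 9.48 in D6 kidneys. Averaged over the genotypes Fat1 differed by 0.34 (limma adjusted p = 0.0134), a call that held under all 21 alternatives. Itga3, the integrin subunit that anchors podocytes to laminin, rose by 0.29 ± 0.08 on the log2 scale in OVE against FVB (limma adjusted p = 0.0468), a call that 16 of 22 alternatives ended, 10 of them by leaving out a single array (highest adjusted p 0.149, without FVB replicate 3). The averaged diabetes difference of Itga3 was 0.25 (limma adjusted p = 0.021), a call that 3 of 21 alternatives ended. Ptpro, the podocyte receptor phosphatase GLEPP1, read 8.21, 8.13 and 8.16 in OVE-D6 kidneys and 7.92, 7.55 and 7.94 in OVE kidneys. It read 8.15, 8.40 and 8.37 in D6 kidneys and 8.20, 8.07 and 8.27 in FVB kidneys. Its OVE arrays were below both the OVE-D6 and the FVB arrays. Ptpro differed by -0.38 ± 0.11 in OVE against FVB (limma adjusted p = 0.0553), and it passed in 6 of 22 alternatives, with adjusted p from 0.0312 without OVE replicate 3 to 0.0487 with a variance trend. Ptpro differed by 0.37 ± 0.11 in OVE-D6 against OVE (limma adjusted p = 0.162). Ddn, which encodes the podocyte protein dendrin, had log2 differences of -0.39 ± 0.17 and 0.47 ± 0.17 in the same comparisons, and neither passed (limma adjusted p = 0.183 and 0.238). For Ptpro and Ddn alike, these comparisons share the OVE arrays. In OVE-D6 against D6 Ddn differed by -0.12 ± 0.17 (limma adjusted p = 0.867). None of the 23 passed in OVE-D6 against D6, D6 against FVB or OVE-D6 against OVE, where 2, 0 and 6 had an unadjusted p under 0.05, beside 9.98%, 3.82% and 14.8% of all genes. Of 6 tested podocyte transcription factors beyond Wt1, limma called 0 in OVE against FVB, with 1 at an unadjusted p under 0.05 beside 24.1% of all genes, and their median log2 difference was -0.09.

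Genes of the glomerular basement membrane, on which podocytes stand, were called in both directions. Col4a3 encodes a chain of the mature type IV collagen that podocytes secrete, and read 8.37, 8.63 and 8.62 in OVE-D6 kidneys and 8.41, 8.50 and 8.60 in OVE kidneys, against 8.63, 8.78 and 8.82 in D6 kidneys and 8.98, 8.97 and 8.91 in FVB kidneys. The OVE arrays were all below the FVB arrays. Col4a3 fell by 0.45 ± 0.09 on the log2 scale (SE, limma adjusted p = 0.0124), a call that held under all 22 alternatives (highest adjusted p 0.0472). Col4a4, whose chain assembles with that of Col4a3, fell by 0.43 ± 0.10 (limma adjusted p = 0.0245). Col4a5, the other type IV collagen gene of this list, differed by -0.14 ± 0.09 in OVE against FVB and did not pass (limma adjusted p = 0.372). The Col4a4 call ended without FVB replicate 1 (limma adjusted p = 0.0629), FVB replicate 2 (0.0718), FVB replicate 3 (0.0762) or OVE replicate 2 (0.0896), and in the 2 groups alone (0.0706). In OVE-D6 against D6 Col4a3 and Col4a4 differed by -0.20 ± 0.09 and -0.20 ± 0.10 and did not pass. Averaged over the genotypes, Col4a3 differed by -0.33 (limma adjusted p = 0.0105), which held under all 21 alternatives. The averaged difference of Col4a4 was -0.31 (limma adjusted p = 0.0207), and 2 of 21 alternatives ended that call. Of the 10 basement membrane genes tested, 2 rose and 2 fell in OVE against FVB, beside 4.90% and 2.38% of all genes. Those that rose were Nid1, the linker nidogen-1 (log2 difference 0.68 ± 0.16, limma adjusted p = 0.0273), and Lama5, a laminin chain of the mature membrane (0.35 ± 0.08, limma adjusted p = 0.0211). The Nid1 call ended without FVB replicate 1 (limma adjusted p = 0.0903), FVB replicate 3 (0.08) or OVE replicate 2 (0.0844), and the Lama5 call without FVB replicate 2 (0.0807), FVB replicate 3 (0.067) or OVE replicate 1 (0.0677), and both in the 2 groups alone. In the averaged diabetes effect 3 of the 10 rose and 2 fell, where limma called 7.65% of all genes. Lama5 rose there by 0.26 (limma adjusted p = 0.0158), a call that held under all 21 alternatives. Agrn and Nid1 rose by 0.24 and 0.41 (limma adjusted p = 0.0369 and 0.0485), calls that 10 and 15 of 21 alternatives ended.

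**Figure D3:**
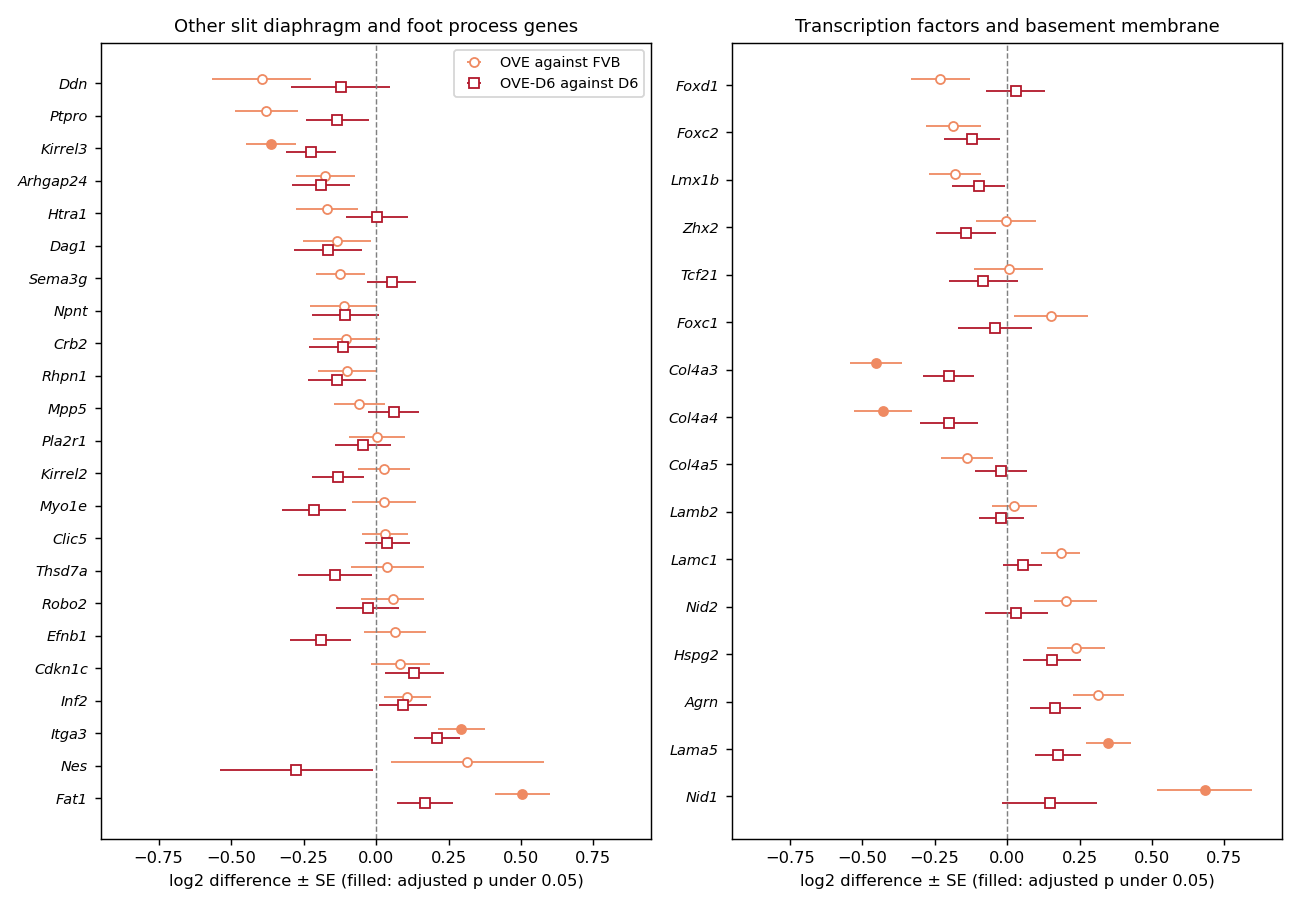
Log2 difference ± SE for podocyte genes beyond the 9 (left) and for podocyte transcription factors and basement membrane genes (right), in OVE against FVB (circles) and OVE-D6 against D6 (squares). Filled symbols passed an adjusted p of 0.05 over all genes. The filled ones are all in OVE against FVB, with Kirrel3, Col4a3 and Col4a4 lower and Fat1, Itga3, Nid1 and Lama5 higher.

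The genes whose log2 values followed Nphs1 most closely over the 12 arrays were not podocyte genes of the lists used here. By Pearson's correlation across the 12 arrays, which also reflects the group differences, they were Klf12 (0.96), Sall3 (0.95), Pik3c2g (0.95), Esr2 (0.94) and Pvalb (0.94). Pvalb, a calcium-binding protein gene, marks the distal convoluted tubule. Among the podocyte genes, Ptpro (0.91, rank 25 of all tested genes), Plce1 (0.90, rank 31), Podxl (0.78, rank 376) and Wt1 (0.78, rank 388) were nearest to Nphs1. Farthest from Nphs1 among the podocyte genes were Fat1 (-0.91, rank 16441), Itga3 (-0.76), Kirrel (-0.76), Synpo (-0.74) and Cd2ap (-0.65). With the group means taken out, the values were 0.79 for Ptpro, 0.85 for Plce1, 0.65 for Podxl and 0.60 for Wt1, and -0.69 for Fat1, -0.15 for Itga3, -0.52 for Kirrel, -0.25 for Synpo and -0.58 for Cd2ap. On the same measure Klf12 had 0.83, Sall3 0.91, Pik3c2g 0.81, Esr2 0.86 and Pvalb 0.79. Ptpro and Plce1 thus each followed Nphs1 also among kidneys of the same group. Klf12, Sall3, Pik3c2g, Esr2 and Pvalb were picked for the highest correlation on these same arrays. Ptpro and Plce1 were likewise named as the nearest podocyte genes. Their values with the group means taken out follow in part from that choice, so the picked genes are no comparison for the podocyte genes. This is a description of these arrays.

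Markers of macrophages and of tubular injury rose in OVE against FVB. None of them passed in OVE-D6 against D6, where only 0.285% of all genes did. The mean log2 value of 12 macrophage markers was 7.32 to 7.55 in OVE-D6 kidneys and 7.85 to 8.92 in OVE kidneys, against 7.43 to 7.69 in D6 kidneys and 7.08 to 7.36 in FVB kidneys. Of the 12, 11 rose in OVE against FVB, beside 4.90% of all genes. Of 8 tubular injury markers 6 rose in OVE against FVB, beside 4.90% of all genes. The mean of the 8 was 7.68 to 8.32 in OVE-D6 kidneys and 8.77 to 9.91 in OVE kidneys, against 7.62 to 7.79 in D6 kidneys and 7.47 to 7.64 in FVB kidneys. OVE replicate 2, with the lowest Nphs1 value of the 12 arrays (7.37), had the highest injury marker mean (9.91). OVE replicate 3 had the lowest macrophage mean of the OVE arrays (7.85). The mean of the 9 podocyte genes, in which genes of opposite sign offset each other, was 8.75 to 8.86 in OVE-D6 kidneys and 8.71 to 8.82 in OVE kidneys, against 8.83 to 8.94 in D6 kidneys and 8.76 to 8.83 in FVB kidneys. For the 12 proximal tubule markers the mean was 11.85 to 11.97 in OVE-D6 kidneys and 11.72 to 11.92 in OVE kidneys, against 11.94 to 12.04 in D6 kidneys and 11.99 to 12.01 in FVB kidneys. The part of these cells in the podocyte gene differences was not tested. No macrophage marker and 1 injury marker, Krt20, had a mean under 5.93.

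**Figure D4:**
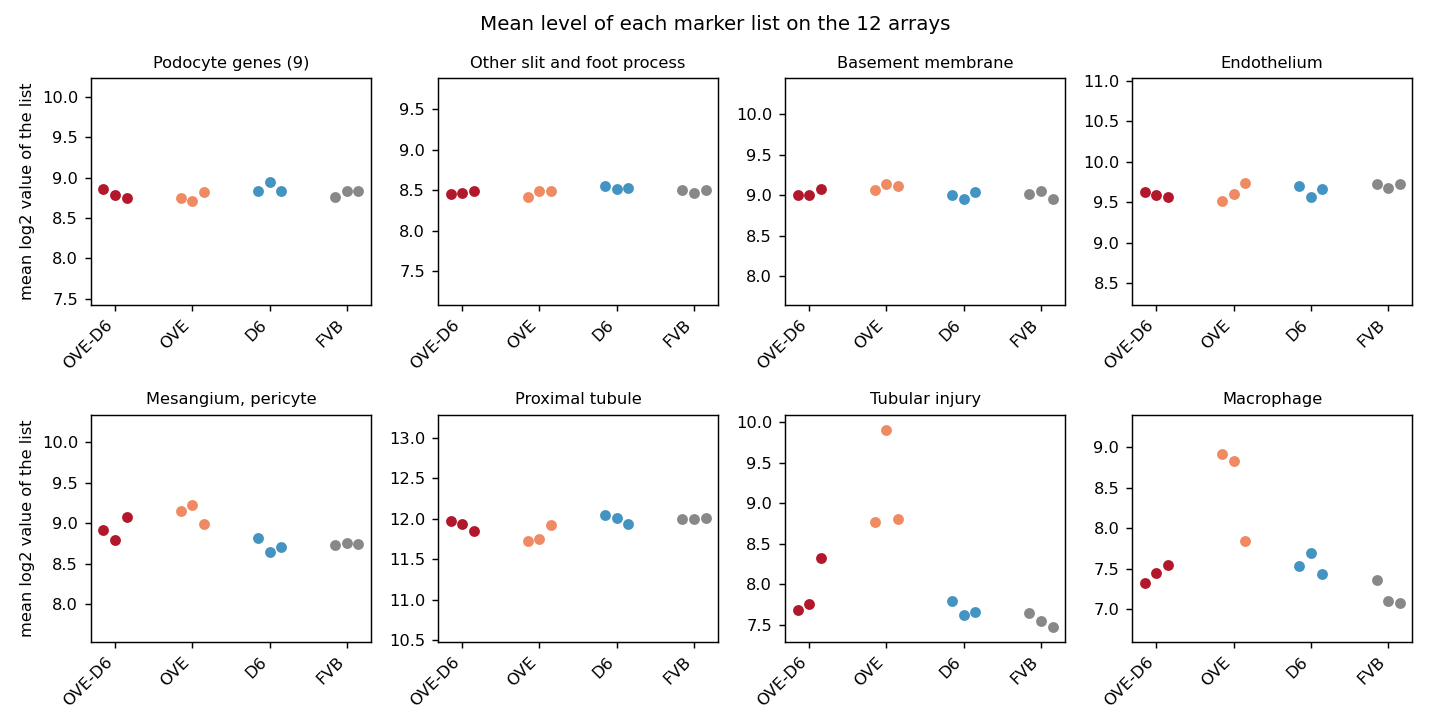
Mean log2 value of each marker list on each of the 12 arrays, in panels that span the same height of log2 units, with points for arrays. The mean of the 9 podocyte genes, which combines genes that differ in opposite directions, lies at 8.71 to 8.94. The tubular injury and macrophage lists are highest in OVE, at 8.77 to 9.91 and 7.85 to 8.92.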

How the data were processed

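RNA from frozen kidneys (integrity number above 8.8) was labelled as sense-strand cDNA for Affymetrix whole-transcript arrays, per the labels' protocols. The authors deposited a log2 value per probe set and array. Their summarisation and normalisation are not given in the sources used here. The values entered the tests unscaled. Among the 35556 probe sets, 21789 carried a single symbol and were kept, while 1621 with more than one and 12146 unnamed here were set aside. Symbols were updated through Entrez identifiers (21698), accessions (3) or kept (88), with the RefSeq table of GRCm38.p6. Where a gene had more than one probe set (1001 genes), the brightest by mean was used. Genes above the array's 25th percentile on at least 3 arrays were tested.

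Group means were fitted by limma 3.58.1 (R 4.3.3; lmFit, eBayes) on all 12 arrays, with Benjamini-Hochberg adjustment over 16480 genes, at an adjusted p of 0.05, for 6 comparisons. The 9 genes, the lists and the rule for named genes (all podocyte list genes, up to 4 per other list by p, and the 5 most correlated with Nphs1) were chosen with earlier results of these data known. Alternatives changed the dim-gene filter, scaling, probe set rule, variance model, arrays in the fit and replicate block. The steps were tested on simulated data. Tables and plots used Python 3.11.15 with matplotlib 3.10.9 and pandas 2.3.3.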

Additional observations from a re-analysis of the deposited data

How the results depend on the processing

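In OVE against FVB, where 2 of the 9 genes passed, 1 did after quantile normalisation and 0 in the 2 groups alone, and 0 to 3 did when an array was left out. For the averaged diabetes effect 1 to 2 did when an array was left out. The other 4 comparisons called 0 under every alternative. Over all genes, 440 passed in OVE against FVB with the 2 groups alone and 359 (without OVE replicate 2) to 1901 (without OVE replicate 3) when an array was left out, against 1200. The count for OVE-D6 against D6 was 74 without OVE replicate 3 and 17 to 63 without another array, against 47. OVE arrays enter OVE-D6 against D6 only through the estimate of spread that all groups share. The median log2 difference there stayed at -0.0067 without OVE replicate 3. What sets OVE replicate 3 apart was not tested. The 50th percentile filter removed Trpc6, Kirrel2 and Kirrel3, which have no value there. It was not run for the lower Nphs1 probe set.

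Arrays with the same replicate number in their titles did not deviate together (correlations of -0.248 to 0.123, and 1 of 12 arrays correlated best with its own number), so the numbers were not taken as pairs. With the replicate number as a block, 2 of the 9 genes still passed in OVE against FVB and the calls of Itga3 (adjusted p = 0.0536) and of Nid1 and Agrn in the averaged effect (0.0668 and 0.0594) ended.

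Sign changes touched only differences that had not passed. After subtracting the array median the log2 difference was 0.0551 for Podxl in the interaction, -0.00748 for Actn4 in OVE against FVB and -0.0263 in the averaged effect, and -0.00438 for Trpc6 and -0.0329 for Kirrel2 in OVE against FVB. Quantile normalisation gave -0.00345 for Cd2ap in OVE-D6 against D6, and array weights gave 0.0248 for Podxl in the interaction and -0.00253 for Actn4 in the averaged effect. With an array left out, values spanned 0 for Kirrel in OVE-D6 against D6 (-0.0504 to 0.0441), Podxl in the interaction (-0.104 to 0.0724), Synpo in D6 against FVB (-0.0333 to 0.0723), Cd2ap in OVE-D6 against D6 (-0.0534 to 0.0649) and D6 against FVB (-0.0782 to 0.0401), and Wt1 in the interaction (-0.00443 to 0.208). They also did so for Actn4 in OVE against FVB (-0.00593 to 0.108) and the averaged effect (-0.0244 to 0.0326), Trpc6 in D6 against FVB (-0.107 to 0.0183), Plce1 in D6 against FVB (-0.0195 to 0.104) and the interaction (-0.00364 to 0.269), the lower Nphs1 probe set in D6 against FVB (-0.0388 to 0.116) and Kirrel2 in OVE against FVB (-0.00701 to 0.0607).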

Other observations

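Of 9 tested mesangial, pericyte and smooth muscle genes, which other parts of a whole kidney also express, 4 rose and 1 fell in OVE against FVB, beside 4.90% and 2.38% of all genes. Des, which encodes desmin, an intermediate filament of mesangial and muscle cells that injured podocytes also make, read 8.93, 8.59 and 8.90 in OVE-D6 kidneys and 9.49, 9.18 and 8.90 in OVE kidneys, against 8.79, 8.40 and 8.53 in D6 kidneys and 8.44, 8.37 and 8.41 in FVB kidneys. It rose 1.72-fold in OVE against FVB (log2 difference 0.78 ± 0.14, SE, n = 3 per group, limma adjusted p = 0.00965), a call that held under all 22 alternatives. In OVE-D6 against D6 Des differed by 0.24 ± 0.14 and did not pass (limma adjusted p = 0.642). Acta2, the smooth muscle actin gene, rose 1.94-fold in OVE against FVB (limma adjusted p = 0.0124, and 0.0528 without OVE replicate 2). The gene that fell was Itga8 (log2 difference -0.35 ± 0.09, SE, limma adjusted p = 0.03), a call that 7 of 22 alternatives ended.

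Of 12 endothelial genes, 1 passed in OVE against FVB, beside 7.28% of all genes, so the count is near the background. Esm1, an endothelial proteoglycan gene, read 7.79, 8.03 and 7.31 in OVE-D6 kidneys and 6.82, 7.32 and 8.08 in OVE kidneys, against 8.61, 8.58 and 8.55 in D6 kidneys and 8.61, 8.56 and 8.88 in FVB kidneys. All diabetic arrays lay below the non-diabetic ones. In OVE-D6 against D6 the log2 difference was -0.87 ± 0.25 and did not pass (limma adjusted p = 0.226). The fall of Esm1 in OVE against FVB had a log2 difference of -1.27 ± 0.25 (SE, limma adjusted p = 0.0136), and the call ended without FVB replicate 3 (0.0561), without OVE replicate 2 (0.057) and in the 2 groups alone (0.0565).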
